A study of Mus musculus with 6 samples.

Results

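Crystallins are the abundant soluble proteins of the eye lens, and several of them are made at far lower levels in the retina. The genes described here are 9 crystallins, namely the alpha crystallins Cryaa and Cryab, the beta crystallins Cryba1, Cryba2, Cryba4, Crybb1, Crybb2 and Crybb3, and the gamma crystallin Crygs. They were chosen by symbol from the 24062 genes of the count table, and all 9 were found in it. The retinas came from wild-type C57Bl6/J mice (WT) and from rd10 mice, labelled with the same strain, at postnatal day 30. In rd10 a germline missense allele of Pde6b, the rod phosphodiesterase beta subunit gene, is present in every cell, and rods are lost in the weeks after birth. Counts cannot show a missense allele, so they do not check the genotype labels. Each group held 3 libraries, each from a sample of 2 frozen retinas, and the libraries are named as in the count table: WT-1, WT-4 and WT-23, then Rd10-3, Rd10-4 and Rd10-5, the order in which counts are given. Separate animals for each sample are not stated in the labels, so a p-value covers no more than the spread between these samples, which may be technical.

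Alpha crystallins are small heat shock proteins, ATP-independent chaperones that hold unfolding proteins in solution. Cryab is made in many tissues, glia and muscle among them, and is known as a stress-induced gene, while Cryaa is best known from the lens. Beta and gamma crystallins share a Greek key fold and pack densely to give the lens its refractive index. In the retina, crystallin transcripts are known both from retinal cells and from lens tissue carried over at dissection.

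Total counts ran from 13573035 to 15818918 for WT libraries and from 10923556 to 12171088 for rd10. Rod genes marked the tissue as retina, and all 18 genes of a rod list were lower in rd10 by the test used throughout (median log2 fold change -2.09). WT-1 stood apart from the other 5 libraries in the crystallins, and results are given with and without it. It was singled out by these same crystallin values, with 7 of the 9 members lowest in it. Crystallin fold changes and p-values without WT-1 are therefore descriptions and no independent test. The rod median was -2.08 without WT-1. In bulk tissue, fewer cells of a type and less RNA per cell cannot be told apart.

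The promoters of the members are shown first, for the motifs they hold. RefSeq promoters (GRCm38.p6, 250 bases before to 50 after the start) were matched for 8 of the 9 members, all but Cryab. Positions count back from -1, the base before the RefSeq start. The first set gives bases -45 to -16 of Cryaa, Crybb1 and Crygs, with matches to a TATA motif in capitals, and of Crybb3, which holds no match there, like Cryba2, Cryba4 and Crybb2. By GENCODE M21 the windows of Cryaa and Crygs overlap exons of transcripts that start further upstream, and the others overlap no exon:
Cryaa, chr17:31677886-31677915, plus strand: ccattctgtgcaggcaTATATAgggagggc
Crybb1, chr5:112255775-112255804, plus strand: tgatgtctgccaggcTATAAAatggggggt
Crygs, chr16:22811426-22811455, minus strand: gtttgatttgaactgccctcTATAAAtgtc
Crybb3, chr5:113081600-113081629, minus strand: gccaacagaacatgcccataaataggccag

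The second set shows a half-site of the Maf response element, called the Maf motif here. The full element is bound in lens by transcription factors of the Maf family, and a half-site is only part of it. By GENCODE M21 the Cryaa window overlaps 1 exon, and the others overlap no exon. The motif is in capitals in 30 bases around it:
Cryaa, chr17:31677812-31677841, plus strand: agcattccagcTGCTGACggtgcagcctct
Cryba4, chr5:112252635-112252664, minus strand: aaaggcagagcTGCTGACatgtccactctg
Crybb1, chr5:112255725-112255754, plus strand: ccatccaggttTGCTGACccagctgcctct

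The longest stretch is that of Cryba1, the most abundant beta crystallin in these libraries, with the Maf motif and the TATA motif in capitals over bases -120 to -1:
Cryba1, chr11:77725294-77725413, minus strand: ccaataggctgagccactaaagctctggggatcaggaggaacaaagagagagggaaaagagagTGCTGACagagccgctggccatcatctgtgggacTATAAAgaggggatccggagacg

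Searched on both strands, TGCTGAC was found in the promoters of Cryaa, Cryba1, Cryba4 and Crybb1, 4 of the 8 matched members, against 4.67% of 32851 promoters. Cryba4 held it at 2 places. TATANA was found in 6 of the 8 members against 24.7% of all promoters. In Cryaa, Crybb1, Cryba1 and Crygs a match began between -30 and -23. All 6 lens gamma crystallins (Cryga to Crygf) held TATANA and 1 of them held TGCTGAC. GAANNTTC, the core of the heat shock element, was in none of the 8 members and in 7.86% of all promoters. A match describes the letters only, and matches were not tied to any library.

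Cryab was the only member called higher in rd10 retinas, and it was also by far the most abundant. The libraries held 601, 517 and 511 counts in WT-1, WT-4 and WT-23 and 1312, 1507 and 1249 in Rd10-3, Rd10-4 and Rd10-5. Every rd10 library lay well above every WT library. In CPM, the count relative to the library size after TMM scaling, the level went from 39.9 ± 8.0 in WT to 108 ± 18 in rd10 (SD over 3 libraries each). The log2 fold change was 1.44 ± 0.18 (SE; edgeR quasi-likelihood test, adjusted p = 0.00197 over 13905 genes). Without WT-1, which held the highest WT level, it was 1.61 ± 0.16 (adjusted p = 0.000219). The authors' deposited table gives Cryab 32.9 FPKM in WT, 88.9 FPKM in rd10, a log2 fold change of 1.44 and a p-value of 4.03e-12, and Cryab is the 1 member among its rows.

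The Cryab gene lies on chromosome 9 from 50752758 to 50756633 on the plus strand of mm10 in the authors' deposited table. In GENCODE M21 it starts at 50751325 and overlaps Hspb2, a small heat shock gene on the opposite strand that ends at 50752354. Hspb2 held between 3 and 6 counts in every library. The libraries were strand-specific, and the sources used here do not state whether the counting used strand.

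Of the 9 members, 6 passed the filter on low counts, and 1 of them, Cryab, was called, against 14.4% of all genes tested. Of those calls 49.3% were higher, a share of 81.2% with library size alone, 63.3% with upper quartile scaling and 14.9% with scaling on inner neuron genes, and Cryab was called higher under each. Without WT-1, 7 members passed the filter and again Cryab alone was called, against 22.8% of genes. No member was called lower by edgeR, and none was lower at an unadjusted p under 0.05. DESeq2 and limma voom also called Cryab higher and no member lower. Cryba2, Cryba4 and Crybb2 did not pass the filter. Groups of libraries did not overlap for 2 of the 6 tested members, Cryab and Crybb1, against 35.7% of genes tested. They overlapped for Cryba2, Cryba4 and Crybb2.

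**Figure D1:**
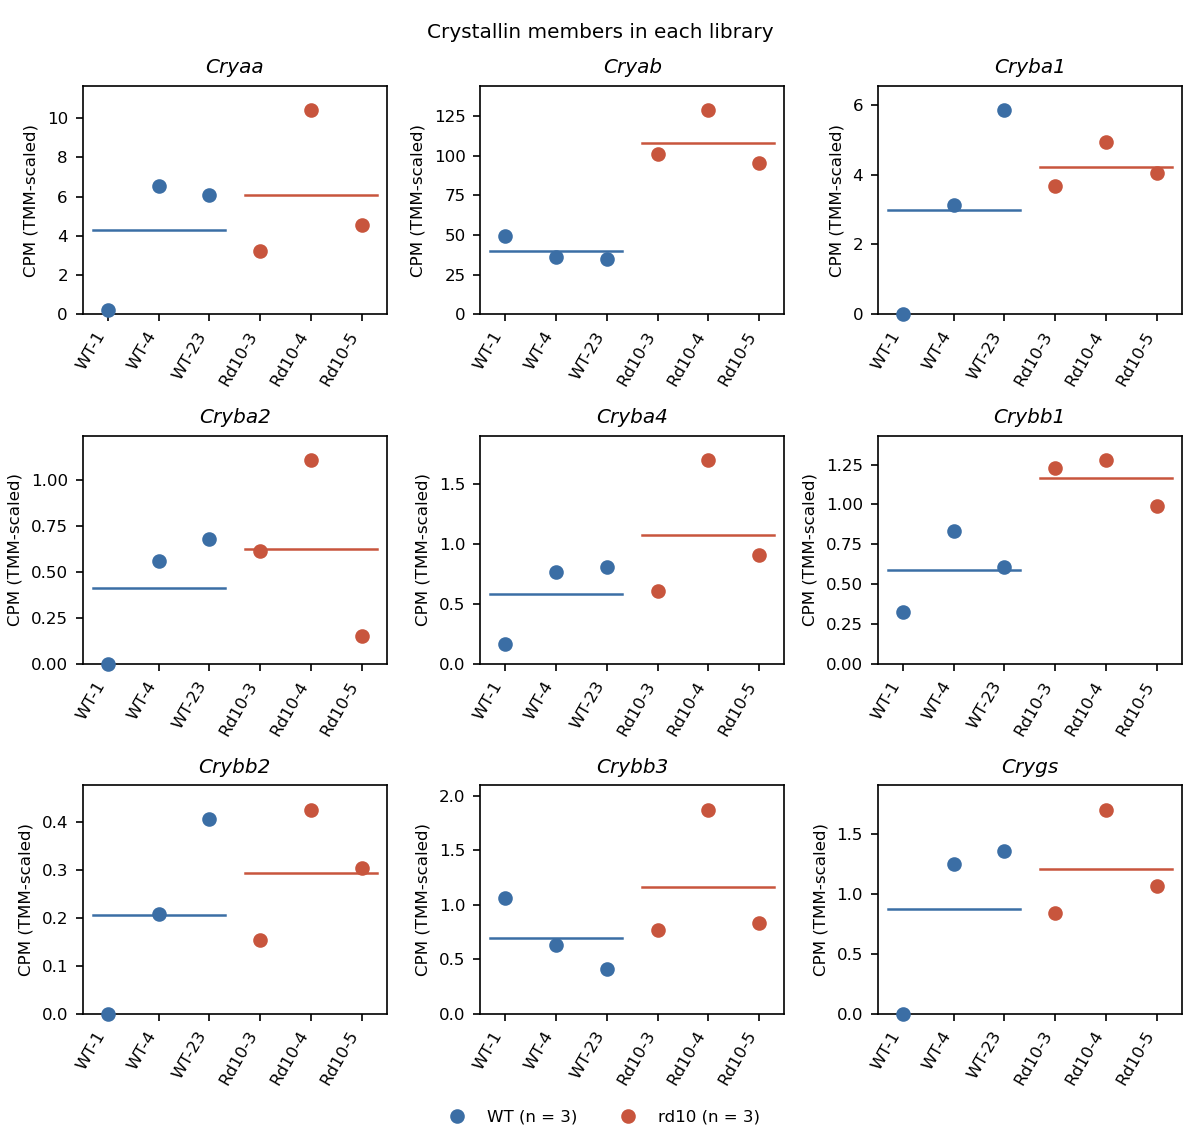
Level of each crystallin in each library, in CPM of the TMM-scaled library size; points are libraries, lines are the means of 3 libraries, and each panel has its own axis from 0. Cryab is high in all 3 rd10 libraries, whereas Cryaa, Cryba1, Cryba2, Crybb2 and Crygs are at or near 0 in WT-1 and overlap between the groups.

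Cryaa, the alpha crystallin that pairs with Cryab in lens, was not called, and its change was not tested against that of Cryab. Its counts were 3, 94 and 90 in the WT group, against 42, 122 and 60 with rd10. WT-1 was far below the other libraries, and WT-4 and WT-23 lay inside the rd10 range. In WT-1 the level was 0.245 CPM, with an exact Poisson 95% interval of 0.0506 to 0.717 CPM that covers counting error only. The log2 fold change of 0.47 ± 0.79 missed the threshold (adjusted p = 0.732), and without WT-1 it was -0.07 ± 0.41 (adjusted p = 0.915). It was also below 0, at -0.16, without Rd10-4, the highest rd10 library, and reached 0.89 without WT-4.

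Among the beta crystallins, Cryba1, which encodes the βA3 and βA1 proteins by alternative translation starts, was the most abundant. Its counts were 0, 45 and 86 in the WT group, against 48, 58 and 53 with rd10. The rd10 libraries were close together, whereas WT ran from none detected to the highest value of all. The count of 0 in WT-1 allows up to 0.245 CPM (3 counts), or 0.302 CPM by the exact Poisson 95% interval, against 3.13 CPM in WT-4. Its log2 fold change was 0.47 ± 0.81 (adjusted p = 0.742) and -0.09 ± 0.30 without WT-1 (adjusted p = 0.845). Without WT-23, the highest library, it was 1.37 (adjusted p = 0.298).

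Crybb1, a basic beta crystallin, came nearest to Cryab in separating the groups. Its counts were 4, 12 and 9 in the WT group, against 16, 15 and 13 with rd10. All rd10 levels, from 0.989 to 1.28 CPM, lay above all WT levels, from 0.327 to 0.836 CPM. The log2 fold change of 0.94 ± 0.38 did not pass (unadjusted p = 0.0384, adjusted p = 0.141; edgeR quasi-likelihood test, n = 3 per group), and was 0.68 ± 0.40 without WT-1 (adjusted p = 0.242).

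Crybb3, another basic beta crystallin, was the member besides Cryab that was not lowest in WT-1. Its counts were 13, 9 and 6 in the WT group, against 10, 22 and 11 with rd10. Here WT-1 was the highest WT library, and the groups overlapped. The log2 fold change was 0.73 ± 0.50 (adjusted p = 0.364) and 1.13 ± 0.54 without WT-1 (adjusted p = 0.157). It was 0.22 without Rd10-4 and 0.47 without WT-23 (adjusted p = 0.823 and 0.592).

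The acidic members Cryba2 and Cryba4 and the basic member Crybb2 were detected at a few counts per library. For Cryba2, the counts were 0, 8 and 10 in the WT group, against 8, 13 and 2 with rd10. For Cryba4, the counts were 2, 11 and 12 in the WT group, against 8, 20 and 12 with rd10. For Crybb2, the counts were 0, 3 and 6 in the WT group, against 2, 5 and 4 with rd10. WT-1 was the lowest library for each, and the groups overlapped for each. With no filter, their log2 fold changes were 0.54 ± 0.86, 0.86 ± 0.57 and 0.45 ± 0.85, and no difference was detectable at this depth (edgeR adjusted p = 0.737, 0.398 and 0.781). Without WT-1 as well, a setting chosen after seeing the data, they were -0.00073 ± 0.54, 0.44 ± 0.51 and -0.07 ± 0.79.

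For Crygs, the gamma crystallin that the adult lens goes on making, the counts were 0, 18 and 20 in the WT group, against 11, 20 and 14 with rd10. WT-4 and WT-23 lay within the rd10 range, and WT-1 had none. The log2 fold change was 0.41 ± 0.74 (adjusted p = 0.756) and -0.13 ± 0.40 without WT-1 (adjusted p = 0.835). It ran from 0.09 without Rd10-4 to 0.86 without WT-23.

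**Figure D2:**
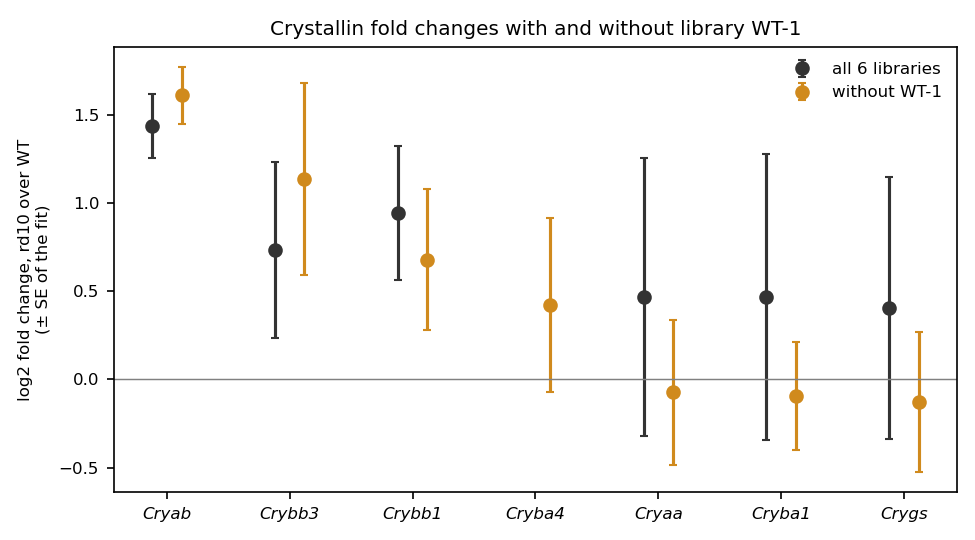
Log2 fold change of rd10 over WT for the members that passed the filter, with all 6 libraries (black) and without WT-1 (orange); bars are standard errors of the edgeR fit. Cryab stays near 1.5 in both, while Cryaa, Cryba1 and Crygs lie on either side of 0; Cryba4 passed the filter only without WT-1.

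Levels of different members can be compared per length, here as CPM per kb of the longest principal GENCODE M21 transcript. In rd10 the order began with Cryab at 96.7 ± 16.0 CPM per kb. Cryba1 followed at 5.42 ± 0.83 and Cryaa at 4.83 ± 3.04 (SD, n = 3 libraries), and these neighbours did not differ beyond their spread. Crygs (1.38 ± 0.51), Cryba4 (1.33 ± 0.70), Crybb1 (1.32 ± 0.18) and Crybb3 (1.30 ± 0.70 CPM per kb) came next and could not be separated. Cryba2 with 0.867 ± 0.664 and Crybb2 with 0.325 ± 0.151 CPM per kb were last. In WT, Cryab stood at 35.8 ± 7.2 CPM per kb, and Cryba1 (3.84 ± 3.75) and Cryaa (3.43 ± 2.81) again came next, with WT-1 lowest and spreads close to their means.

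Summed over the 8 members other than Cryab, counts were 22, 200 and 239 for WT, then 145, 275 and 169 for rd10. WT-1 was far below the rest, and the other libraries overlapped between groups. On the log2 CPM scale the sum was 1.02 ± 1.07 higher in rd10 (SE; exact two-sided permutation test, p = 0.6, n = 3 per group, for which 0.1 is the smallest possible p). Without WT-1 the difference was -0.0057 ± 0.346 (exact p = 1, smallest possible 0.2). It was 1.58 without WT-23, 1.47 without WT-4 and 0.69 without Rd10-4.

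The make-up of this sum was similar in 5 libraries and different in WT-1. Cryaa and Cryba1 together made up 69.5% and 73.6% of it in WT-4 and WT-23 and 62.1%, 65.5% and 66.9% in Rd10-3, Rd10-4 and Rd10-5. In WT-1 they made up 13.6% of 22 counts, and Crybb3 made up 59.1%, against 2.51% to 8% elsewhere.

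**Figure D3:**
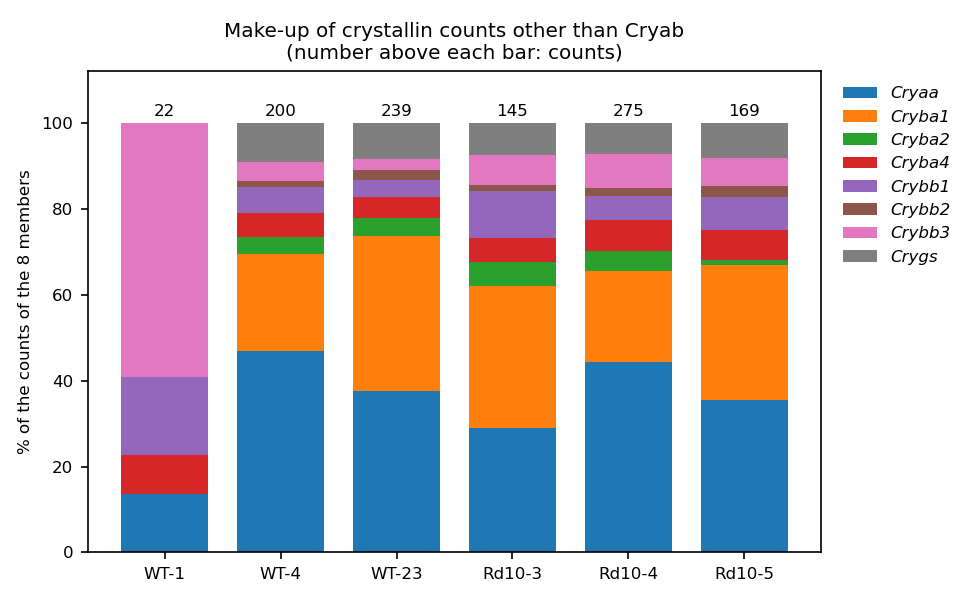
Share of each of the 8 members other than Cryab in their summed counts, in percent, for each library, with the number of counts above each bar. Cryaa and Cryba1 fill most of every bar but that of WT-1, which rests on 22 counts and is mostly Crybb3.

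The gamma crystallins of lens fibre cells, Cryga to Crygf, are related genes whose reads the counting may not fully separate, so their sum is given. It was 1, 68 and 40 counts for WT, then 27, 34 and 31 for rd10. All 6 genes were lowest in WT-1, Cryge together with Rd10-3, and 5 of them were at 0 there. On the log2 CPM scale, rd10 minus WT was 1.25 ± 1.84 (exact permutation p = 0.9, n = 3 per group) and -0.57 ± 0.43 without WT-1 (exact p = 0.4). It was 2.36 without WT-4 and 1.96 without WT-23. The mean level, in CPM, went the other way, from 2.51 ± 2.33 in WT to 2.44 ± 0.42 in rd10 (SD over 3 libraries), so no direction can be given. Crygc, the 1 gene of them that passed the filter, had a log2 fold change of -0.08 ± 0.68 (edgeR adjusted p = 0.95).

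Few genes were absent from WT-1 alone. Of 13900 genes with at least 5 counts in each of the other 5 libraries, 7 had none in WT-1, and 4 of these were crystallins, Cryba1, Crygs, Crygb and Crygd. The other 3, Cd48, Insl6 and Sp110, were chosen after their values were seen and complete the count. The same count for each of the other libraries in turn was between 0 and 3. Counts of 0 do not show differences in abundant genes, and WT-1 differed from the other WT libraries in some of those. In WT-1, WT-4 and WT-23, Pcp2 held 1863, 1059 and 646 counts and Slc32a1 1680, 948 and 651. Hsp90aa1, lowest in WT-1, held 32836, 47281 and 63112 counts. These genes were picked after their values were seen, and WT-4 and WT-23 also differed from each other in them. Without WT-1, 3214 genes were called, against 2008 with all 6 libraries and between 885 and 1873 without any 1 other library. Samples were not grouped by these values, which describe 1 library.

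Lens genes other than crystallins were mostly too low to compare WT-1 with the rest. Of 11 lens fibre and epithelium markers, Foxe3 and Dnase2b were at 0 in every library. Lim2, Mip and Gja3, genes of lens fibre membranes and gap junctions, and Grifin and Lctl held between 0 and 6 counts in each library. In WT-1, Mip, Grifin and Lctl were at 0, Lim2 had 1 count and Gja3 had 2. The list genes with more counts were not missing from WT-1. In WT-1, WT-4 and WT-23, Hsf4 held 74, 54 and 40 counts and Bfsp2 22, 19 and 14, highest in WT-1. Lgsn held 11, 11 and 15 and Bfsp1 5, 11 and 4 counts, with WT-1 not the highest. Mip, the main membrane protein of lens fibres, was detected in WT-23 with 4 counts and in Rd10-4 and Rd10-5 with 2 each. Grifin had 1 count in WT-4 and 2 in WT-23, and 1, 3 and 6 in the rd10 libraries. The whole list ran from 5.49 to 9.40 CPM in WT, highest in WT-1, and from 7.53 to 11.4 CPM in rd10, and most of it was Hsf4, Bfsp2 and Lgsn. None of the 3 tested genes of the list passed by edgeR, at an unadjusted p under 0.05, or by DESeq2 or limma voom, and their median log2 fold change was 0.55 against -0.04 for all genes. Bfsp2, a beaded filament gene, had 0.55 ± 0.37 and Hsf4, a heat shock factor gene active in lens, 0.10 ± 0.32 (adjusted p = 0.363 and 0.868). The part of lens tissue in the crystallin counts was not tested beyond these values.

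**Figure D4:**
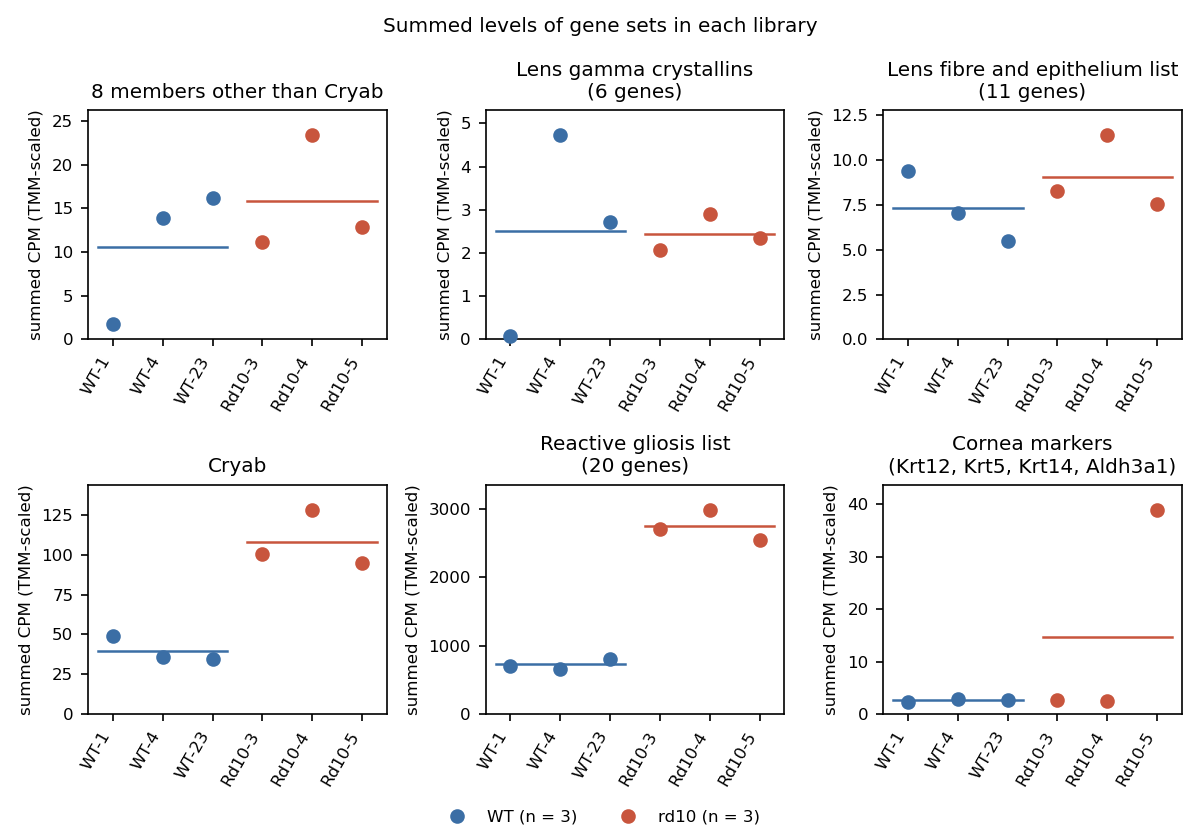
Summed level of gene sets in each library, in CPM of the TMM-scaled library size; points are libraries and lines the means of 3 libraries. The 8 members and the lens gamma crystallins are near 0 in WT-1, the lens fibre and epithelium list runs from 5.49 to 11.4 CPM, and Cryab and the gliosis list are high in all 3 rd10 libraries.

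Rd10-5 held far more counts of corneal epithelium genes than the rest. Krt12, Krt5, Krt14 and Aldh3a1 summed to 39.0 CPM in Rd10-5 and to between 2.37 and 2.86 CPM in the other 5 libraries. The 8 members summed to 12.9 CPM in Rd10-5, between Rd10-3 with 11.1 and Rd10-4 with 23.4, and without Rd10-5 the log2 fold change of Cryab was 1.52 (adjusted p = 0.00558). Of 5 tested ciliary body and cornea genes none passed by edgeR, DESeq2 or limma voom, with Aldh3a1 under an unadjusted p of 0.05. Optc had a log2 fold change of -0.59 ± 0.70 and Col9a1 one of 0.62 ± 0.32 (adjusted p = 0.614 and 0.242), and Col9a1 passed without WT-1 (0.99, adjusted p = 0.0233).

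Glial genes rose alongside Cryab. Of the 20 genes of a reactive gliosis list, 17 rose and none fell, against 7.12% and 7.32% of all genes, with a median log2 fold change of 2.46, and of 12 Müller cell genes 10 rose (median 0.71). Both lists were chosen with earlier results of these data known, so their counts and sums are descriptions and no independent test. The Müller count was 5 without WT-4, 6 without Rd10-3 and 5 with inner neuron scaling, which scales libraries on bipolar, amacrine and ganglion cell genes. The gliosis list summed to between 667 and 808 CPM in WT and between 2543 and 2991 CPM in rd10, a log2 difference of 1.92 ± 0.11 (SE; exact permutation p = 0.1, n = 3 per group, the smallest possible). In rd10 the order of libraries was the same for Cryab and for this sum, with Rd10-4 highest and Rd10-5 lowest, but in WT it was not, with WT-1 highest for Cryab and WT-23 for the list. Slc1a3, a glutamate transporter gene, and Spon1, an extracellular matrix gene, rose by 0.72 ± 0.11 and 0.76 ± 0.12 (adjusted p = 0.00383 and 0.00513). Glul and Rlbp1, also of the Müller list, had 0.29 ± 0.11 and 0.18 ± 0.10 and were not called (edgeR adjusted p = 0.12 and 0.277). Gbp2, an interferon-induced GTPase gene, rose by 2.52 ± 0.18. Of 4 tested astrocyte genes, Aldh1l1 and Pdgfra rose, with a list median of 0.52. The share of the Cryab rise that came with glia was not tested.

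The 3 genes whose pattern over the 6 libraries was most like that of Cryab, by the root mean square difference of centred log2 CPM among 12786 genes, were Axl, Tmem176b and Crym. For Axl, a receptor kinase gene, the counts were 393, 356 and 316 in the WT group, against 880, 916 and 785 with rd10, at a distance of 0.0644. For Tmem176b, a membrane protein gene, the counts were 624, 583 and 577 in the WT group, against 1556, 1571 and 1425 with rd10, at 0.0698. Crym, at 0.0763, is named a crystallin for its abundance in marsupial lenses and encodes a thyroid hormone binding ketimine reductase unrelated in fold to the 9 members. These distances describe likeness and include the group difference itself.

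Of the other 8 genes with crystallin names in the table, 6 were tested and 2 rose, against 7.12% of all genes, with a median of 0.46. For Crym, the counts were 1379, 1250 and 1314 in the WT group, against 3554, 3663 and 3020 with rd10, a log2 fold change of 1.5 ± 0.16 (edgeR adjusted p = 0.00101). For Aim1, which belongs to the wider beta and gamma crystallin superfamily, the counts were 14, 10 and 10 in the WT group, against 30, 24 and 24 with rd10 (1.30 ± 0.31, adjusted p = 0.0262). The call of Aim1 was lost without any 1 library other than WT-1, at an adjusted p of 0.107 for WT-4, 0.0664 for WT-23, 0.116 for Rd10-3, 0.0768 for Rd10-4 and 0.0562 for Rd10-5. The authors' deposited table, for which Cryl1 is named here, gives this dehydrogenase gene a log2 fold change of 0.45 and a p-value of 0.0373, and the edgeR fit here gave 0.45 ± 0.17 with an unadjusted p of 0.0276 and an adjusted p of 0.115.

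The other small heat shock genes did not pass the test. For Hspb6, the counts were 2216, 2268 and 1895 in the WT group, against 2127, 2102 and 2045 with rd10, a log2 fold change of 0.09 ± 0.14. For Hspb8, a partner of Bag3, the counts were 197, 192 and 145 in the WT group, against 209, 201 and 222 with rd10 (0.35 ± 0.19, adjusted p = 0.261). Of 7 such genes, 3 were tested and none was called by edgeR, at an unadjusted p under 0.05, by DESeq2 or by limma voom, with a median of 0.09.

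Genes of the heat shock response moved both ways. Of 10 genes, 1 rose and 3 fell, against 7.12% and 7.32% of all genes, with a median of -0.18. None was called lower without Rd10-3 or without Rd10-5. For Bag3, a co-chaperone gene, the counts were 84, 105 and 98 in the WT group, against 188, 197 and 150 with rd10 (log2 fold change 1.03 ± 0.18, adjusted p = 0.00874). Hspa1a and Hspa1b, the inducible HSP70 genes, had -1.20 ± 0.26 and -1.63 ± 0.33 (edgeR adjusted p = 0.0195 and 0.0147), and as near-identical copies whose reads could be split each value is uncertain. Their calls were lost without Rd10-3 (adjusted p = 0.0922 and 0.0625) or Rd10-5 (0.0631 and 0.0524). Hsp90aa1, the other gene that fell, named after its value was seen, had -0.69 ± 0.19 (adjusted p = 0.0484), and that call was lost in 9 of 16 alternatives, the loss of any 1 library but WT-1 among them (0.153, 0.1, 0.157, 0.143 and 0.0608 in library order).

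**Figure D5:**
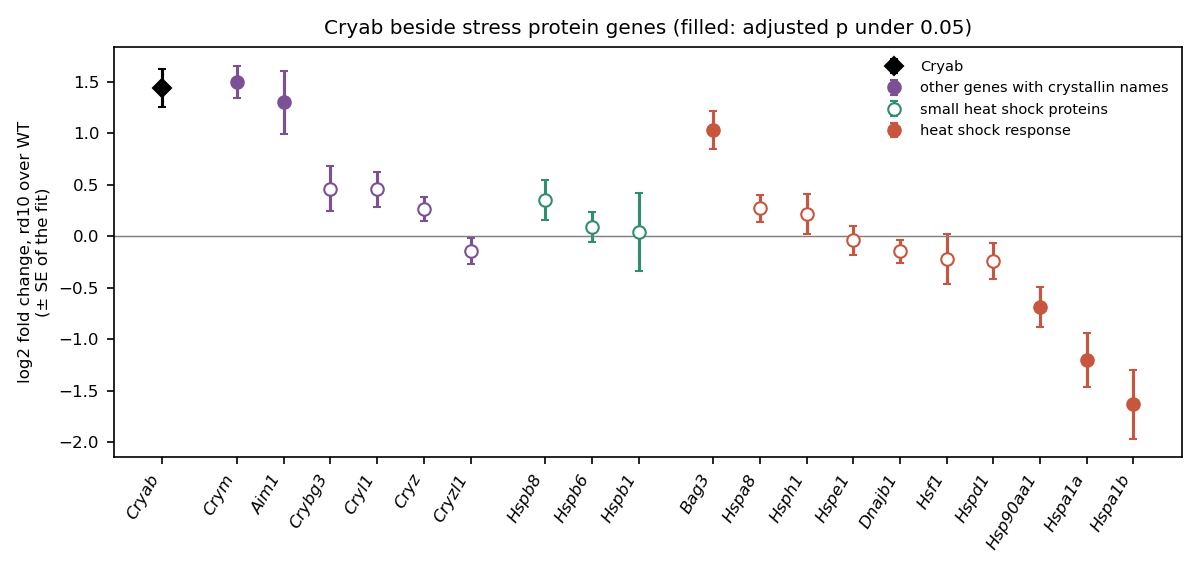
Log2 fold change of rd10 over WT, with standard errors of the edgeR fit, for Cryab, other genes with crystallin names, small heat shock genes and heat shock response genes that passed the filter; filled symbols had an adjusted p under 0.05. Cryab (1.44), Crym (1.5), Aim1 (1.30) and Bag3 (1.03) lie highest, and Hspa1b (-1.63) lies lowest.

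Of 12 genes of transcription factors known to regulate crystallin genes in lens, 10 were tested and 1 rose, with a median of 0.24. Of all genes tested, 7.12% were called higher. By scaling the count ran from 0 (inner neurons) to 5 (library size alone). Six3, an eye field homeobox gene, had a log2 fold change of 0.41 ± 0.11 (edgeR adjusted p = 0.0373). Its call was lost without any 1 library other than WT-1 (adjusted p = 0.131, 0.0648, 0.186, 0.115 and 0.0746 in library order), with inner neuron scaling (0.407) and against a fold of 1.2 (0.194). Pitx3 was at 0 in every library and Sox1 at no more than 1 count. Of 11 tested pigment epithelium genes, 3 fell and none rose (median -0.36), against 7.32% and 7.12% of all genes. Rpe65, the retinoid isomerase gene, had -1.18 ± 0.17 and Rgr, an opsin gene, -1.30 ± 0.22 (edgeR adjusted p = 0.00362 and 0.00662).

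Of the 9 members, 4 lie near the rd10 locus. On chromosome 5, Cryba4 (112246493 to 112252518) and Crybb1 (112255815 to 112269585) are neighbours on opposite strands, 3.81 and 3.82 Mb from Pde6b, and Crybb2 (113058258 to 113070117) and Crybb3 (113075839 to 113081584) are 4.63 and 4.64 Mb away (GENCODE M21). None of these 4 was called. Within 5 Mb of Pde6b, 18.5% of 81 tested genes were called, Pde6b left out, against 14.4% of all. The rd10 allele and sequence linked to it cannot be told apart here.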

How the data were processed

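RNA was extracted with DNase treatment and made into strand-specific libraries from 1 µg of total RNA, per the labels' protocols. The submitters' processing notes name TopHat2 2.1.0, HTSeq, edgeR and mm10; no annotation is named there. The authors deposited raw counts per gene, and a table of FPKM per group, log2 fold changes and p-values, per the file headers. Count columns were assigned to groups by name. Genes were filtered with filterByExpr (minimum count 10) and tested with edgeR 4.0.16 in R 4.3.3 (TMM, robust quasi-likelihood fit, Benjamini-Hochberg over all genes, threshold 0.05). The fit was tested on simulated data. It recovered 6.45% of 1.5-fold, 68.6% of 2-fold and 98.5% of 4-fold changes, so a gene that was not called may still have changed. The changed genes were drawn from all genes tested, with a spread typical of their level. These rates are therefore not those of members with few or widely spread counts, such as Cryaa, Cryba1 and Crygs. Sums were compared by exact permutation tests (scipy 1.17.1).

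Alternatives were DESeq2 1.42.0, limma voom 3.58.1, other scaling (RLE, upper quartile, library size alone, and inner neuron scaling, which uses bipolar, amacrine and ganglion cell genes), other filters, thresholds and each library left out. The members and gene lists were chosen with earlier results of these data known. Named genes were the members, the lens gamma and lens fibre lists, up to 3 called genes of each other list by p (otherwise its 2 tested genes with the highest level), genes next to a member, Pde6b, and the 3 genes most like Cryab with a mean of at least 1 CPM (pseudocount 0.1). Not all are printed, and 1 item of the lens marker list is not reported here. Intervals and floors cover counting error only.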

Additional observations from a re-analysis of the deposited data

How the results depend on the processing

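The rise of Cryab kept its direction and its call in all 16 alternatives, with log2 fold changes from 1.16 (inner neuron scaling) to 1.68 (library size alone). The count of members called was 1 higher and 0 lower throughout. Cryaa turned to -0.0740 without WT-1 and to -0.163 without Rd10-4, Cryba1 to -0.0950 and Crygs to -0.130 without WT-1, and with no filter and without WT-1, chosen after seeing the data, the values were -0.0605, -0.0844 and -0.116; none of these was called. With 1 library left out the 3 ran up to 0.892, 1.37 and 0.858, and limma voom gave the highest values, 1.13, 2.07 and 1.41, uncalled as well. The number of genes called, 2008, was 3043 with library size alone, 4337 with inner neuron scaling, 1285 against a fold of 1.2, 881 at a threshold of 0.01, 3262 with no filter and without WT-1, and between 885 and 3214 with 1 library left out. The gliosis sum difference was 2.16 and 1.64 under those scalings (library size first), which shifted the median of all genes by 0.239 and -0.282 on the log2 scale. At these depths 3 counts equal 0.203 to 0.256 CPM, which limits Cryba2, Cryba4 and Crybb2. No paired analysis was possible because the count columns carry no replicate numbers that match those of the sample titles. Bipolar, amacrine and ganglion cell lists served only the scaling. By edgeR, 5, 0 and 1 of their 14, 12 and 12 genes rose and none fell, against 7.12% and 7.32% of all genes (amacrine: 2 at an unadjusted p under 0.05, 1 by DESeq2). In the same order, 9, 7 and 5 rose with library size alone and 7, 2 and 4 without WT-1. Without WT-4 or without Rd10-3, 0 bipolar genes rose. With inner neuron scaling 0, 0 and 0 rose and 1 bipolar gene fell. That scaling centres the typical change of these same genes, so their counts under it are no independent result.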
